A study of Mus musculus with 12 samples.

Results

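Myosin light chains are small subunits that wrap the lever arm of each myosin heavy chain, and myosin light chain kinases are the enzymes that phosphorylate 1 class of them. The 10 genes described here are Myl7, Myl4, Myl2, Myl3, Myl1, Myl6, Myl12a, Mylk, Mylk3 and Mylk4, found by gene symbol among the 40690 genes of the deposited table. All 10 were among the 14336 genes expressed highly enough to be tested.

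Right atrial RNA was sequenced in 12 mouse libraries, 6 labelled iNICD and 6 labelled control. The genotype label iNICD marks the mice in which Notch signalling was switched on, and the controls were their littermates. Both groups were adult, received doxycycline in the chow for 3 weeks starting at 2 to 3 months of age, and were sampled without a washout. The labels used here name neither the promoter that drives the allele nor the cells that express it, nor the sex of the animals, and they do not say whether a library is 1 animal, so p-values describe the spread between samples.

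Every myosin heavy chain of muscle carries 1 essential and 1 regulatory light chain. Hearts use chamber-specific pairs, Myl7 (regulatory) with Myl4 (essential) in the atria and Myl2 (regulatory) with Myl3 (essential) in the ventricles. Phosphorylation of the regulatory chain by calmodulin-dependent kinases raises force in heart muscle and switches contraction on in smooth muscle, and a phosphatase built around Ppp1cb reverses it.

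Library depth was 12015650 to 22716190 reads assigned to genes, so that 1 read was worth 0.0440 to 0.0832 CPM, the deposited unit, in which the reads of a gene are scaled to the total of its library. Notch1, a Notch receptor gene, was at 3064 to 5358 CPM in iNICD and 192 to 293 CPM in control, with no library against its label. Some libraries stood apart: iNICD 3, iNICD 5 and control 3 were rich in the RNA Gm42418, at 20234 to 30814 CPM. Xist, the RNA of the inactive X chromosome, was at 464 to 649 CPM in 7 libraries (iNICD 1 to 3 and control 1, 2, 3 and 5) and at 7.07 to 13.5 CPM in the other 5.

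The atrial pair fell together in iNICD atria. Myl7 was at 45.1% and Myl4 at 55.4% of the control mean, and no iNICD library reached the lowest control library for either gene. These were the only 2 of the 10 genes past the threshold (adjusted p under 0.05 in limma), both lower, against 6.71% of all tested genes called in either direction and 1.84% called lower. Over all genes 698 rose and 264 fell, or 616 and 384 after median-of-ratios scaling. Groups were fully apart for the same 2 of 10 genes, against 4.59% of all tested genes in either direction with 3.46% apart and higher and 1.13% apart and lower. The 10 genes were chosen with earlier results of these data known, so these shares describe them and do not test them as a set. The ventricular pair, the skeletal, non-muscle and smooth muscle light chains and the 3 kinases did not pass the test.

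The promoter windows of Myl7 and Myl4 are shown because these 2 genes moved together. They are RefSeq sequences (GRCm38.p6) that run 5′ to 3′ from 250 bases before to 50 bases after the annotated start, and capitals mark a CArG box, the binding motif of serum response factor. Myl7 lies on chromosome 11 at chr11:5898733-5899032, minus strand, and Myl4 on the same chromosome at chr11:104550413-104550712, plus strand.
Myl7: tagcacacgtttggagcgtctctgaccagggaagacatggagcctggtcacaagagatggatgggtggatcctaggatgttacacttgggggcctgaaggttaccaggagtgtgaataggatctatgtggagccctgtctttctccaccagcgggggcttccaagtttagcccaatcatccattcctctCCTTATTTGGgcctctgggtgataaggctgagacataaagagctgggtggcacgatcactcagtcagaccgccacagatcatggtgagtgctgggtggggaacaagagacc
Myl4: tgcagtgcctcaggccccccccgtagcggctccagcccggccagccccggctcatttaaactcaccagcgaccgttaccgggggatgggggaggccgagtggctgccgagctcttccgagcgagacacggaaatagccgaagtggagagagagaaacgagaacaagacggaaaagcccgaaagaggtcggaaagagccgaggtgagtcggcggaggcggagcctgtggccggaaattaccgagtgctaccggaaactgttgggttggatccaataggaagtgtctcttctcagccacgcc

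Both strands of each window were searched for 4 motifs: TGGGAA, the core recognised by the Notch partner RBPJ; AGGTGT, a T-box core; the CArG box; and the MEF2 box. The Myl7 window held 1 CArG box, at −61 relative to the start, and none of the other motifs, and the Myl4 window held none of the 4. Of all 32851 mouse promoter windows of this length, 1.63% held a CArG box, 25.6% the TGGGAA core, 13.7% the AGGTGT core and 0.557% a MEF2 box. Among the other members, a CArG box stood in the Myl3 window at −85 and in 1 of the 2 Myl6 windows at −50, and TGGGAA stood in the Myl12a window at −205. The 2 Myl2 windows, chr5:122092474-122092773 and chr5:122092939-122093238, lie upstream of every Myl2 coding start in GENCODE M21, the first at 122100951. The sequence around those starts was therefore not searched. The Myl4 window belongs to the most upstream of 5 annotated coding starts, and which start the atria used cannot be read from gene totals.

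Myl7 (ENSMUSG00000020469, chr11:5896637-5898782, minus strand, GRCm38) encodes the atrial regulatory light chain. It had 2059, 2029, 1922, 2156, 2579 and 2958 CPM in iNICD libraries 1 to 6, against 4785, 5274, 5146, 5005, 5093 and 5079 CPM in control libraries 1 to 6. The highest iNICD library stood well below the lowest control library, and iNICD 5 and 6 were the highest of their group. The means were 2284 ± 401 CPM in iNICD and 5064 ± 163 CPM in control (SD, n = 6 each), a log2 fold change of −1.17 (SE 0.10, 95% interval −1.38 to −0.95, limma adjusted p = 2.24e-06). The exact permutation test gave p = 0.0022 (two-sided, n = 6 each), the smallest that 6 against 6 libraries allow. The coefficient of variation was 17.6% among iNICD libraries and 3.23% among control libraries. These values rest on 24096 to 108692 reads per library.

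Myl4 (ENSMUSG00000061086, chr11:104550663-104595753, plus strand) encodes the atrial essential light chain. Its level was 3808, 3372, 3979, 4669.7, 4058 and 4245 CPM in iNICD libraries 1 to 6, against 6803, 7442, 6666, 8155, 6678 and 7774 CPM in control libraries 1 to 6. Again every iNICD library was below every control library. The means were 4022 ± 434 CPM in iNICD and 7253 ± 632 CPM in control (SD, n = 6 each), with a log2 fold change of −0.85 (SE 0.09, 95% interval −1.04 to −0.67, limma adjusted p = 1.68e-05; exact permutation p = 0.0022). Its coefficient of variation was 10.8% among iNICD libraries and 8.72% among control libraries. In RNA from whole atria, fewer cells of a type and less RNA per cell cannot be told apart, and this holds for every level given here.

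**Figure D1:**
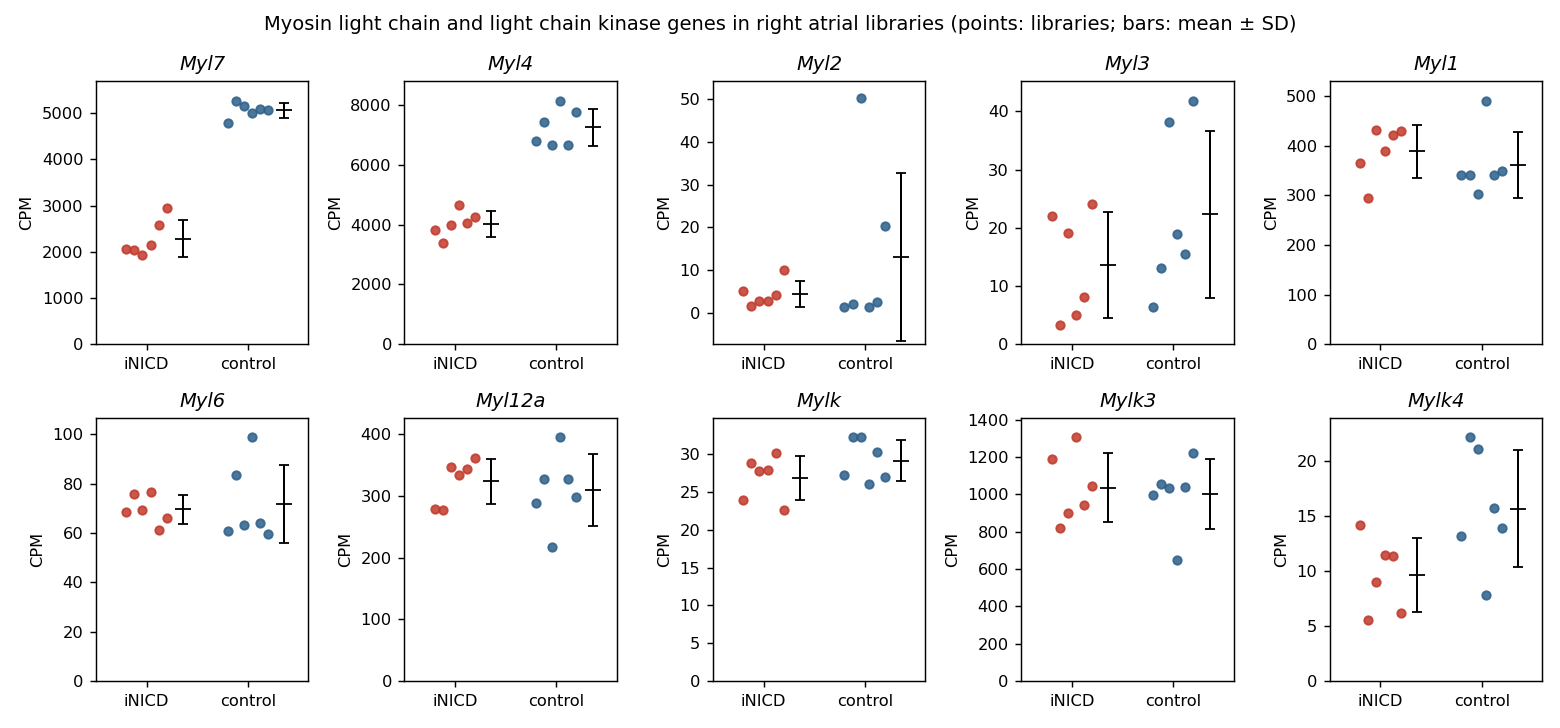
CPM of the 10 light chain and kinase genes in each right atrial library (points), iNICD left and control right, with the mean ± SD of 6 libraries beside each group. Only Myl7 and Myl4 separate the groups without overlap, with iNICD means of 2284 and 4022 CPM against control means of 5064 and 7253 CPM.

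Both falls held in each of the 12 fits that left out 1 library, with log2 fold changes of −1.24 to −1.12 for Myl7 and −0.90 to −0.80 for Myl4. Without the 3 libraries rich in Gm42418 they were −1.15 for Myl7 and −0.88 for Myl4, both past the limma threshold (adjusted p = 0.000172 and 0.000922). Among the libraries with high Xist, Myl7 was at 1922 to 2059 CPM in the 3 iNICD libraries and 4785 to 5274 CPM in the 4 control libraries, a log2 fold change of −1.34. With low Xist, the range was 2156 to 2958 CPM in the 3 iNICD libraries and 5005 to 5079 CPM in the 2 control libraries, and the fold change was −0.99. The 3 iNICD libraries with low Xist were thus the 3 with the most Myl7. For Myl4 the corresponding log2 fold changes were −0.89 and −0.88. Neither gene passed the limma threshold in the 5 low-Xist libraries alone (adjusted p = 0.118 for Myl7 and 0.103 for Myl4), where 1 of all tested genes was called lower.

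Per kilobase, Myl7 and Myl4 were the 2 most abundant of the 10 members. Over the union of its exons, Myl7 stood at 3871 CPM per kb in iNICD and 8582 CPM per kb in control. Myl4 stood at 867 CPM per kb in iNICD and 1564 CPM per kb in control by the same measure. The annotated exons of Myl4 sum to 4637 bases, but its longest coding transcript has 943 bases. With that length its level was 4265 CPM per kb in iNICD, above Myl7, and 7692 CPM per kb in control, below Myl7, so the order of these 2 genes depends on the transcript assumed. In iNICD that difference is within the SDs of 460 CPM per kb for Myl4 and 680 CPM per kb for Myl7.

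The regulatory chain fell further than the essential chain. The ratio of Myl7 to Myl4 CPM within a library, which does not depend on library scaling, was 0.541, 0.602, 0.483, 0.462, 0.636 and 0.697 in iNICD libraries 1 to 6, against 0.703, 0.709, 0.772, 0.614, 0.763 and 0.653 in control libraries 1 to 6. The ranges overlap, since iNICD 5 and 6 lie above control 4. On the log2 scale the iNICD ratio was lower by a difference of −0.31 (exact permutation p = 0.017, adjusted p = 0.026 over 6 ratios, n = 6 each). That call was lost when iNICD 1, 3 or 4 or control 3 or 5 was left out, with differences of −0.37 to −0.25 over the 12 exclusions.

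**Figure D2:**
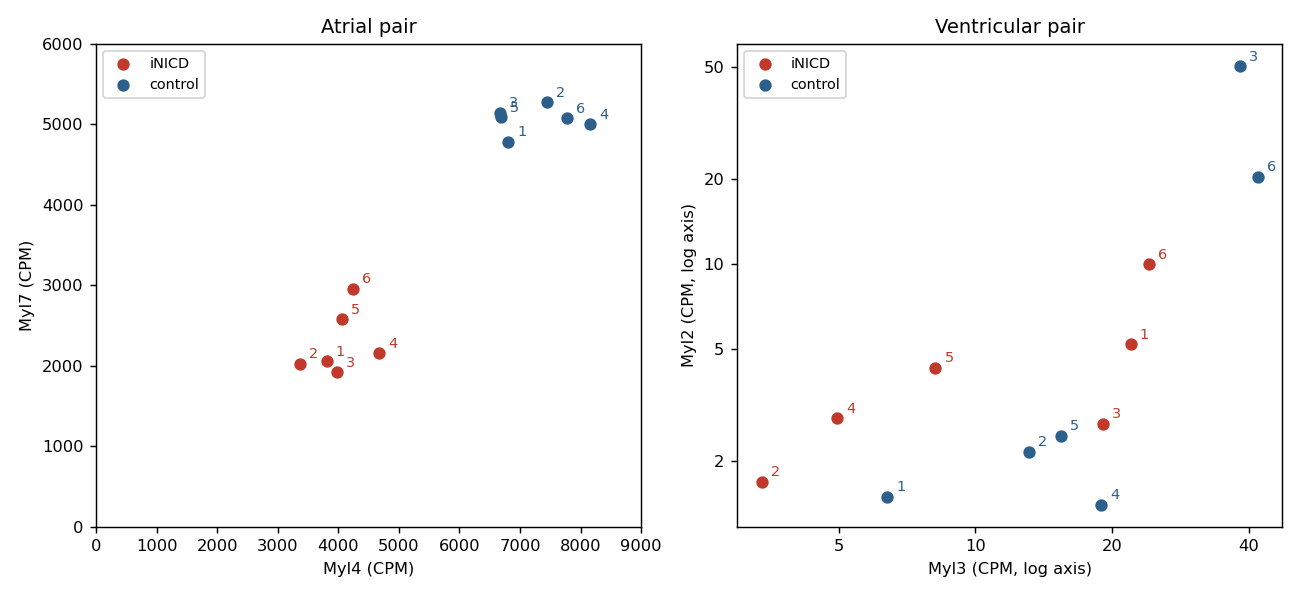
Regulatory against essential light chain CPM in each library, numbered within its group: Myl7 against Myl4 (left, linear axes) and Myl2 against Myl3 (right, log axes), iNICD in red and control in blue. The atrial pair separates the groups on both axes, whereas the ventricular pair mixes them, with control 3 and control 6 highest for Myl2 at 50.3 and 20.3 CPM.

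Both atrial light chains fell relative to the main atrial heavy chain. Myh6, which encodes the alpha myosin heavy chain, averaged 38528 ± 2345 CPM in iNICD and 42302 ± 5088 CPM in control (SD, n = 6 each), with a log2 fold change of −0.13 (SE 0.09, limma adjusted p = 0.51). The CPM ratio of Myl7 to Myh6 ranged over 0.0506 to 0.0701 in iNICD and 0.108 to 0.152 in control, with no overlap. Its log2 difference was −1.04 (exact permutation p = 0.0022, adjusted p = 0.0043 over 6 ratios). For Myl4 to Myh6 the ratio ranged over 0.0841 to 0.122 in iNICD and 0.142 to 0.247 in control, a log2 difference of −0.73 with the same p-values from the exact permutation test. These ratios compare the groups, and do not count chains per heavy chain, because CPM is not scaled to length.

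Myl2 (ENSMUSG00000013936, chr5:122100951-122113472, plus strand), the ventricular regulatory light chain, was rare. It had 5.20, 1.69, 2.71, 2.84, 4.30 and 9.98 CPM in iNICD libraries 1 to 6, against 1.497, 2.16, 50.3, 1.40, 2.46 and 20.3 CPM in control libraries 1 to 6. Control 3 and control 6 lay above all iNICD libraries, while the other 4 control libraries lay within or just below the iNICD range. The iNICD mean of 4.45 CPM was therefore below the control mean of 13.02 CPM, although the median was higher in iNICD, at 3.57 CPM, than in control, at 2.31 CPM. The log2 fold change was −0.37 (95% interval −2.23 to 1.49, limma adjusted p = 0.88). It was −1.57 in edgeR and −1.60 in DESeq2, and 0.26 without control 3, and it passed the threshold in none of these 3 fits. Only 21 to 639 reads lie behind these values.

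Myl3 (ENSMUSG00000059741, chr9:110741861-110769798, plus strand), the ventricular and slow skeletal essential light chain, had 21.97, 3.38, 19.1, 4.96, 8.16 and 24.1 CPM in iNICD libraries 1 to 6, against 6.38, 13.2, 38.2, 18.9, 15.5 and 41.9 CPM in control libraries 1 to 6. Control 3 and control 6 were again the highest of the 12, and the rest overlapped. The log2 fold change of −0.76 was uncertain (SE 0.58, 95% interval −2.05 to 0.52, limma adjusted p = 0.55). It was −0.46 without iNICD 2, −1.06 without control 1 and −0.14 with array weights.

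Setting each ventricular gene against its atrial partner, Myl2 made up 0.0833% to 0.336% of the Myl2 and Myl7 CPM in iNICD and 0.0280% to 0.967% in control. Myl3 made up 0.1002% to 0.574% of the Myl3 and Myl4 CPM in iNICD and 0.0937% to 0.570% in control. The log2 ratio of Myl2 to Myl7 differed by 0.84 (exact permutation p = 0.38, adjusted p = 0.46 over 6 ratios) and that of Myl3 to Myl4 by 0.05 (exact permutation p = 0.90, adjusted p = 0.90). In no library did the ventricular chain exceed 1% of its pair. Irx4, a transcription factor of ventricular muscle, was at 0 to 0.0693 CPM in iNICD and 0 to 0.472 CPM in control. Its 2 highest libraries were control 3 and control 6, but no library had more than 7 reads of it. Whether ventricular tissue in these samples has a part in their Myl2 and Myl3 levels was not tested.

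The slow heavy chain Myh7, which is the ventricular partner of Myl2 in the fetal mouse heart, averaged 1372 ± 734 CPM in iNICD and 1347 ± 860 CPM in control (SD, n = 6 each). Its log2 fold change was 0.07 (SE 0.50, limma adjusted p = 0.97). Of the 4 ventricular markers listed (Irx4, Hey2, Myh7 and Pln), 3 could be tested and 0 passed, and their summed level was 983 to 2943 CPM in iNICD and 964 to 3516 CPM in control. Like Irx4, Pln was highest in control 3 and control 6, at 639 and 734 CPM, but control 5 was close to control 3, at 630 CPM. Myh7 and Hey2 were highest in control 3 only. In control 6 Myh7 (1453 CPM) was below iNICD 4 (2470 CPM), and Hey2 (4.21 CPM) was below iNICD 3 (4.87 CPM).

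Myl1 (ENSMUSG00000061816, chr1:66924295-66945404, minus strand) encodes the essential light chain of fast skeletal muscle. Its level was 294 to 432 CPM with a median of 406 CPM in iNICD, and 303 to 491 CPM with a median of 342 CPM in control. The groups overlapped, with control 4 the highest of all libraries at 491 CPM and the other 5 control libraries at 303 to 350 CPM. The log2 fold change was 0.11 (95% interval −0.14 to 0.36, limma adjusted p = 0.69). Per kilobase of exon, Myl1 followed Myl7 and Myl4 among the 7 light chains, at 187 CPM per kb in iNICD and 174 CPM per kb in control. Mylpf, the regulatory light chain of fast skeletal muscle, was at 0.486 CPM per kb in iNICD and 0.379 CPM per kb in control. Of 11 skeletal muscle markers, 5 could be tested and 0 passed, with 2 positive and 3 negative log2 fold changes and a median of −0.08. The sum of the 11 was 28.6 to 49.2 CPM in iNICD and 26.8 to 46.7 CPM in control. Among the fast troponin genes, Tnnc2 was at most 0.0693 CPM in iNICD, or 1 read, and at 0 in every control library. Tnni2, too low to test, was at 0.957 to 1.32 CPM in iNICD and 0.0880 to 0.830 CPM in control, without overlap. Tnnt3 was at 2.42 to 10.95 CPM in iNICD and 1.494 to 6.88 CPM in control (log2 fold change 0.91, limma adjusted p = 0.22). Other markers of the list leaned the opposite way. Pvalb, too low to test, was at 0 to 0.132 CPM in iNICD and 0.127 to 0.660 CPM in control. Tnni1 had a log2 fold change of −0.51 (limma adjusted p = 0.45). The part of skeletal muscle RNA in the Myl1 level was not tested.

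Myl6 and Myl12a serve the non-muscle and smooth muscle myosins, as essential and regulatory chain. Myl6 (ENSMUSG00000090841, chr10:128490860-128494145, minus strand) had 61.4 to 76.5 CPM with a median of 68.9 CPM in iNICD, and 59.7 to 98.8 CPM with a median of 63.6 CPM in control. Its log2 fold change was −0.02 (95% interval −0.27 to 0.23, limma adjusted p = 0.96). Myl12a (ENSMUSG00000024048, chr17:70993656-71002878, minus strand) had 277 to 362 CPM with a median of 339 CPM in iNICD, and 217 to 395 CPM with a median of 313 CPM in control. Its log2 fold change was 0.08 (95% interval −0.18 to 0.34, limma adjusted p = 0.79). For both genes the iNICD range lay inside the control range. Annotated exons under the name Myl12b share 462 bases with Myl12a on the same strand, 13.8% of its exons. The Myl12b gene measured here lies apart from Myl12a, at chr17:70973133-70990890, so these bases are not part of it. Whether the shared bases affected the Myl12a reads was not tested.

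Summed over the 7 light chain members, the level was 7106 ± 757 CPM in iNICD and 13094 ± 766 CPM in control (SD, n = 6 each). Myl7 and Myl4 held 87.1% to 89.4% of this sum in iNICD and 92.9% to 94.6% in control. The 5 other light chains thus made up a larger share in iNICD while none of them passed the test.

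None of the 3 kinase genes passed the test. Mylk3 (ENSMUSG00000031698, chr8:85324303-85386345, minus strand), the cardiac myosin light chain kinase, was the most abundant kinase, at 242 CPM per kb in iNICD and 234 CPM per kb in control. It had 820.05 to 1306 CPM with a median of 995 CPM in iNICD, and 651 to 1224 CPM with a median of 1038 CPM in control. The lowest of all libraries was control 4 at 651 CPM, and the other 5 control libraries lay at 999 to 1224 CPM. The log2 fold change was 0.05 (SE 0.14, 95% interval −0.25 to 0.36, limma adjusted p = 0.90). The CPM ratio of Mylk3 to Myl7 ranged over 0.354 to 0.606 in iNICD and 0.130 to 0.241 in control without overlap. Its log2 difference was 1.22 (exact permutation p = 0.0022, adjusted p = 0.0043 over 6 ratios). This ratio mostly restates the log2 fold change of Myl7 (−1.17) and is not a separate result about the kinase.

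**Figure D3:**
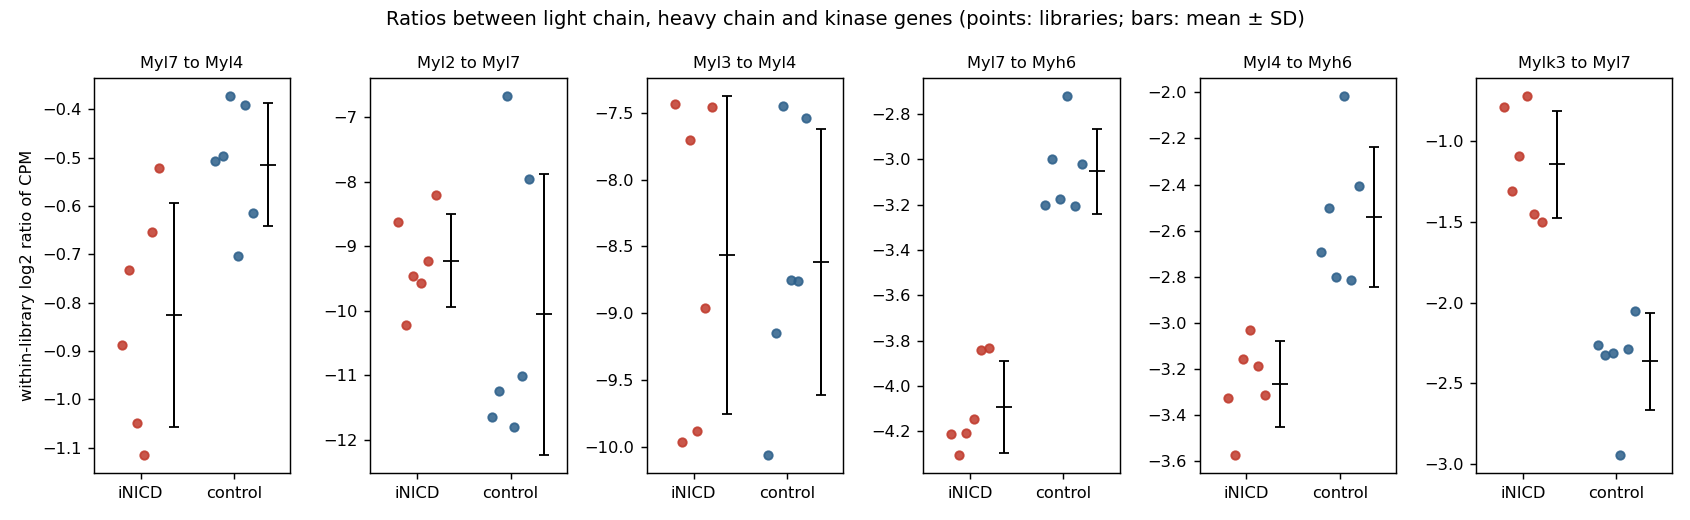
Within-library log2 ratios of CPM for 6 pairs of genes, each library a point and the mean ± SD beside it, iNICD left and control right (vertical axes do not start at 0 and differ between panels). Myl7 to Myh6, Myl4 to Myh6 and Mylk3 to Myl7 separate the groups, with differences of −1.04, −0.73 and 1.22, whereas the ventricular to atrial ratios overlap.

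Mylk4 (ENSMUSG00000044951, chr13:32700834-32783954, minus strand), a less studied member of the kinase family, had 14.2, 5.56, 9.01, 11.4, 11.4 and 6.14 CPM in iNICD libraries 1 to 6, against 13.2, 22.1, 21.1, 7.77, 15.7 and 13.9 CPM in control libraries 1 to 6. Most iNICD libraries lay below most control libraries, but iNICD 1 and control 4 crossed over. The means were 9.62 ± 3.36 CPM in iNICD and 15.6 ± 5.34 CPM in control (SD, n = 6 each). The log2 fold change of −0.67 (SE 0.27, 95% interval −1.24 to −0.10) missed the threshold after adjustment over all genes (limma adjusted p = 0.17; exact permutation p = 0.052). It passed when control 4 was left out (−0.85, limma adjusted p = 0.040), with array weights (−0.78, limma adjusted p = 0.042) and in DESeq2 (−0.73, adjusted p = 0.046). Among libraries with high Xist the log2 fold change was −0.94, and among those with low Xist it was −0.16. The difference between these 2 values was not tested.

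Mylk (ENSMUSG00000022836, chr16:34745210-35002420, plus strand), the kinase of smooth muscle and non-muscle cells, had 22.6 to 30.2 CPM with a median of 27.8 CPM in iNICD, and 26.1 to 32.2 CPM with a median of 28.8 CPM in control. Its log2 fold change was −0.12 (SE 0.09, 95% interval −0.31 to 0.08, limma adjusted p = 0.55). Smooth muscle markers gave 0 calls among 8 tested genes, with a sum of 671 to 990.2 CPM in iNICD and 705 to 1208 CPM in control.

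Across all 10 members, the median log2 fold change was −0.25 and 7 of 10 values were negative, beside a median of 0.05 and 5552 negative values among all 14336 tested genes. Per kilobase of exon in iNICD, Mylk4 (1.25 CPM per kb), Myl2 (2.28), Mylk (2.39) and Myl3 (6.66) formed the low end. In control the same 4 genes were lowest, with Mylk4 at 2.03, Mylk at 2.59, Myl2 at 6.68 and Myl3 at 10.9 CPM per kb. The difference between Myl3 and Myl2 is within their spread in both groups, with SDs of 4.48 and 1.53 CPM per kb in iNICD and 7.03 and 10.1 CPM per kb in control. Myl6 (21.8 CPM per kb in iNICD, 22.5 in control) and Myl12a (96.3 in iNICD, 92.0 in control) lay between them and Myl1.

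A further 3 light chain genes could be tested, and 0 passed. Myl9, the regulatory light chain of smooth muscle, averaged 484 ± 75.2 CPM in iNICD and 644 ± 200 CPM in control (SD, n = 6 each), a log2 fold change of −0.38 (SE 0.17, limma adjusted p = 0.25). Myl12b had a log2 fold change of −0.19 and Myl6b of 0.27. Mylpf was too low to test, and Myl10 was listed at 0 in all 12 libraries. The median over the 3 tested genes was −0.19.

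Of 9 other light chain kinase and calmodulin genes, 8 were tested, 1 rose (against 4.87% of all tested genes) and 0 fell (median log2 fold change 0.18). The one that rose was Calm3, which encodes calmodulin, at 539 ± 102 CPM in iNICD and 413 ± 32.5 CPM in control (SD, n = 6 each). Its log2 fold change of 0.37 (SE 0.11) was at the edge of the threshold (limma adjusted p = 0.0498; exact permutation p = 0.0065), the groups overlapped, and it passed under 6 of 29 alternative settings, among them 2 of the 12 fits without 1 library. Calm2, which encodes the same protein, had a log2 fold change of −0.05 and did not pass.

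Of 9 genes of the light chain phosphatase and its inhibitors, 8 were tested, 1 rose (against 4.87% of all tested genes) and 0 fell (against 1.84%), with a median of 0.10. Ppp1r14c, an inhibitor of protein phosphatase 1, rose to 63.9 ± 12.1 CPM in iNICD, against 37.7 ± 10.5 CPM in control (SD, n = 6 each). Its log2 fold change was 0.78 (SE 0.18, limma adjusted p = 0.018; exact permutation p = 0.0065), and it passed in all 12 fits without 1 library although the groups overlapped, at 49.0 to 81.4 CPM in iNICD and 23.6 to 53.0 CPM in control. It missed the limma threshold without the 3 libraries rich in Gm42418 (0.80, adjusted p = 0.067). The catalytic subunit Ppp1cb (0.13), the targeting subunits Ppp1r12a (0.01) and Ppp1r12b (0.03), and the smooth muscle inhibitor Ppp1r14a (−0.17) did not pass. Ppp1ca is listed at 0 in all libraries under each of its entries, ENSMUSG00000040385 and ENSMUSG00000096994. How reads shared by such entries were counted is not given, so these values do not show that Ppp1ca was absent.

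Among 12 myosin heavy chain genes, 8 were tested, 2 rose (against 4.87% of all tested genes, with 3.46% apart and higher) and 0 fell (median log2 fold change 0.02). Myh8, the perinatal skeletal heavy chain, was at 5.18 ± 1.88 CPM in iNICD and 1.92 ± 0.514 CPM in control (SD, n = 6 each), a log2 fold change of 1.20 (SE 0.21, limma adjusted p = 0.0023) without overlap. Myh14, a non-muscle heavy chain, was at 135 ± 9.48 CPM in iNICD and 112 ± 6.71 CPM in control (SD, n = 6 each), a log2 fold change of 0.27 (SE 0.07, limma adjusted p = 0.023), also without overlap. The Myh14 call was lost without iNICD 1 (adjusted p = 0.0523), iNICD 2 (0.0589) or control 5 (0.0551) in limma. The fast and embryonic skeletal genes Myh1, Myh2, Myh3 and Myh4 were too low to test.

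**Figure D4:**
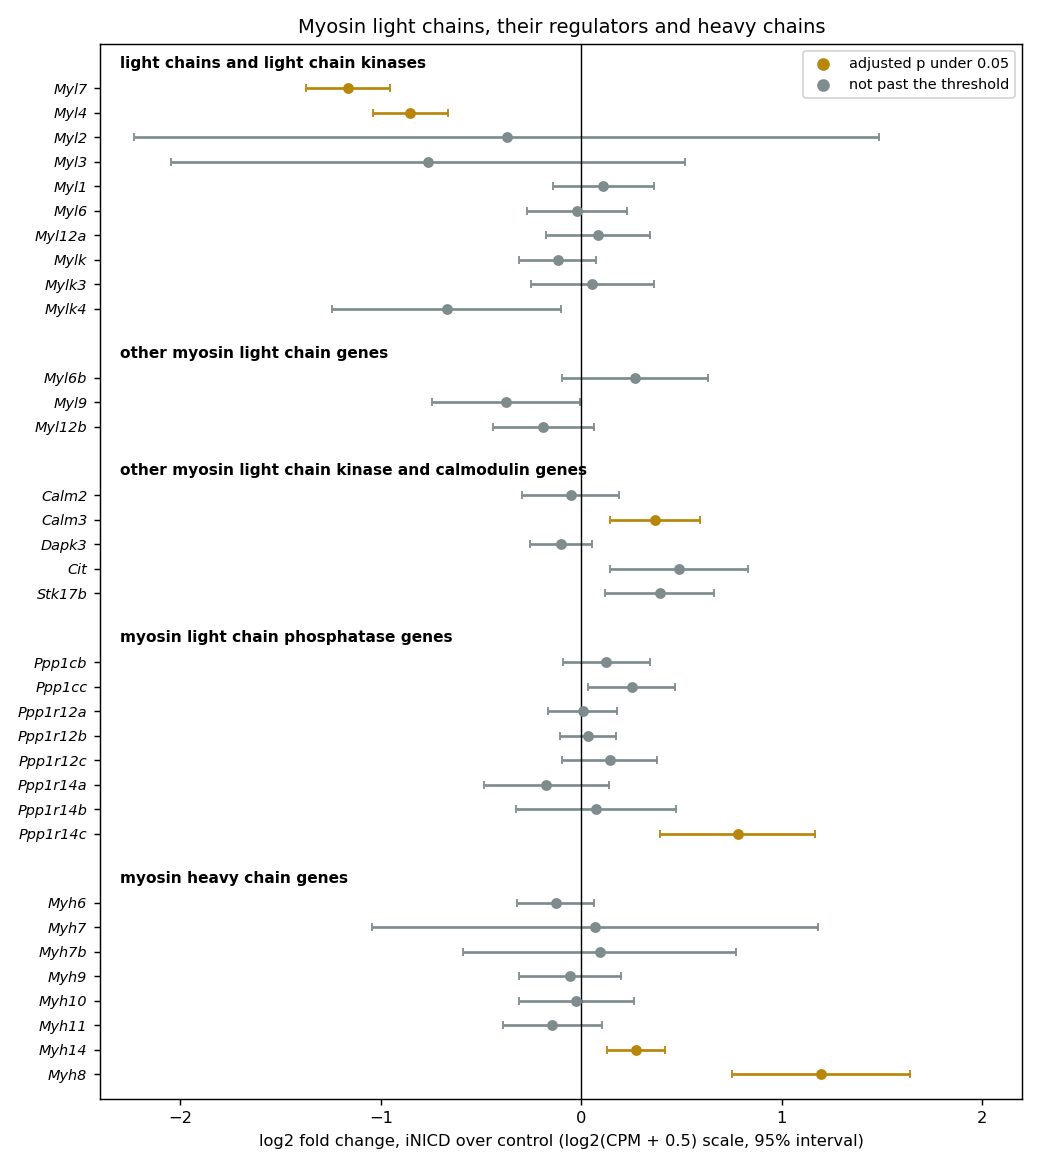
Log2 fold changes, iNICD over control, with 95% intervals on the log2(CPM + 0.5) scale, for tested light chain, kinase, calmodulin, phosphatase and heavy chain genes, in gold where the limma adjusted p is under 0.05. Myl7 (−1.17) and Myl4 (−0.85) are the genes called lower, and Calm3, Ppp1r14c, Myh14 and Myh8 are called higher.

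Some cell type markers moved beside the atrial light chains. The counts stand against 4.87% of all tested genes called higher and 1.84% called lower. The marker lists were chosen with earlier results of these data known, so these counts are not an independent check. Of 8 other atrial cardiomyocyte markers, 4 fell (Nppa, Sln, Dkk3 and Tbx5) and 0 rose. Their median log2 fold change was −0.53, and their sum was 4498 to 6495 CPM in iNICD and 10204 to 14327 CPM in control. Of 9 general cardiomyocyte markers, 1 rose (Mybpc3) and 0 fell, with a median of −0.19. Of 5 macrophage markers, 3 rose (Csf1r, Adgre1 and C1qa), with a median of 0.44 and a sum of 342 to 504 CPM in iNICD against 272 to 354 CPM in control. Of 6 fibroblast markers, 1 rose (Tcf21), and their sum was 1710 to 2465 CPM in iNICD and 1570 to 1981 CPM in control. Endothelial markers gave 0 calls among 5. Of 29 alternative settings, Dkk3 passed under 16, Csf1r under 20, C1qa under 13 and Tcf21 under 8. The part of any shift in cell types in the fall of Myl7 and Myl4 was not tested.

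The genes whose pattern over the 12 libraries was most like that of Myl7 were found by the root mean square difference of log2 values, each centred on its own mean, among 11102 genes. They included Gpc1 (0.20), Lad1 (0.21), Myl4 (0.23) and Egln3 (0.23). For Myl4 they were Sln (0.12), Ndufa4 (0.14), Hint1 (0.16), Eno3 (0.19) and Fndc5 (0.19). Sln, an inhibitor of the calcium pump of the sarcoplasmic reticulum in atrial muscle, was at 844 ± 124 CPM in iNICD and 1373 ± 79.0 CPM in control (SD, n = 6 each). Gpc1, a cell-surface heparan sulfate proteoglycan, was at 479 ± 74.0 CPM in iNICD and 877 ± 93.7 CPM in control. The log2 fold changes of the 4 named beside Myl7 were −1.06 to −0.85, and those of the 5 named beside Myl4 were −0.81 to −0.69. Because likeness was measured over the libraries of both groups, similar fold changes follow from how these genes were chosen. No other member was among these genes: the next member in likeness to Myl7 was Mylk4, at 0.57.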

How the data were processed

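The deposited table gives CPM, counts that the authors scaled to the total of each library. STAR 2.4.0b and featureCounts are named per the submitters' processing notes. For the genome build, annotation, strand setting and multi-mapping reads, the choice is not given in the sources used here, and genes that overlap or have near-identical copies may share reads. The table has 41264 rows for 40690 gene identifiers, and 574 repeat rows were used once. Every CPM value was a whole multiple of 1 read (100% within 0.001 reads), which gave depths of 12015650 to 22716190 reads. Libraries of a group differed by more than counting noise (chi-square per degree of freedom 8.47 to 79.9).

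The main test was limma 3.58.1 (R 4.3.3) with trend and robust estimation on log2(CPM + 0.5), for the 14336 genes that reached 1 CPM in 6 or more of the 12 libraries. The Benjamini-Hochberg adjustment ran over those genes, with a threshold of 0.05 and without a replicate block. Fold changes are iNICD over control on that log2 scale, where the pseudocount shrinks those of low genes. An exact permutation test (two-sided, scipy 1.17.1) compared the mean log2 values of single genes and of 6 within-library ratios. On the recovered whole reads, the quasi-likelihood test of edgeR 4.0.16 called 626 genes higher and 377 lower, and DESeq2 1.42.0 called 838 higher and 587 lower. The scripts were tested on simulated data.

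The genes named are the 10 members, the genes of the pathway and marker lists, Notch1, and for each of Myl7 and Myl4 the 5 genes with the most similar pattern among those with a mean of at least 5 CPM and a symbol that is not of a predicted gene. Some genes that the rule names are not reported here. The members and lists were chosen with earlier results of these data known. Gm42418 and Xist were named after their values were seen. Positions and exon lengths come from GENCODE M21 (GRCm38), and promoters from RefSeq (GRCm38.p6), where all 10 members had an entry.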

Additional observations from a re-analysis of the deposited data

Results flagged for a closer look

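In each group of 6 libraries, 66 sets of values (genes or ratios by group) were examined for a library far from the other 5, which chance alone gives in about 1 set in 20. These sets did not cover every gene named in this report. Such a library was found in 5 of the 66 sets, and in all 5 it was control 4. Myl1 was at 491 CPM in control 4, against 303 to 350.1 CPM in the other 5 control libraries. Mylk3 was at 651 CPM there, against 999 to 1224 CPM in the others. Myh6 was at 33021 CPM, against 41224 to 47016 CPM, and the atrial marker Dkk3 was at 857 CPM, against 1215 to 1367 CPM. The CPM ratio of Mylk3 to Myl7 was 0.130 in control 4, against 0.200 to 0.241 in the others. Genes outside these sets can also have a library far from the rest, in either group. Calm2 was at 125 CPM in iNICD 4, against 93.5 to 101 CPM in the other 5 iNICD libraries. Tnni1 was at 4.71 CPM in control 4, against 17.6 to 21.5 CPM in the other 5 control libraries.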

How the results depend on the processing

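Myl7 and Myl4 were called lower under 28 of 29 alternatives, over which their log2 fold changes were −1.34 to −0.99 and −0.91 to −0.80. The exception, chosen after seeing the data, was the 5 low-Xist libraries alone, 3 iNICD against 2 control, where 0 members passed. The fits on high-Xist or low-Xist libraries, without the 3 libraries rich in Gm42418, and with a Gm42418 covariate were all chosen after seeing the data.

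Over all genes, 698 were called higher. Leaving out 1 library gave 458 to 782, leaving out the 3 Gm42418-rich libraries 378, and the low-Xist libraries alone 36. The count of lower genes was 264. It was 407 with quantile normalization, 552 with array weights, 587 in DESeq2, 186 to 432 without 1 library, 145 without the 3 Gm42418-rich libraries and 1 in the low-Xist libraries alone. The cause of these shifts was not tested. The share of called genes that were higher was 72.6%, against 61.6% with median-of-ratios scaling, 61.7% with TMM, 59.7% with quantile normalization, 62.4% in edgeR, 58.8% in DESeq2 and 63.7% with array weights. The median log2 fold change of all genes was 0.05, and −0.01 with median-of-ratios scaling.

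Replicate numbers are shared between the groups, but same-numbered libraries correlated by −0.03 to 0.40, over 0.1 in 4 of 6 pairs, and for 3 of the 6 numbers the correlation exceeded that with every other number. Because not all 6 pairs were over 0.1 and the labels tie no numbers together, the libraries were not treated as pairs, and whether some share a source is not known. With the replicate number as a block, limma called 794 genes higher and 297 lower. Under the block the mean ratio differences are the same by construction (Myl7 to Myl4 −0.31, Myl7 to Myh6 −1.04, Myl4 to Myh6 −0.73, Mylk3 to Myl7 1.22). Their adjusted p from an exact sign-flip test was 0.0938 for Myl7 to Myl4, where number 6 went the opposite way, and 0.0625 for the other 3, for which the smallest p before adjustment is 0.0312. Without 1 library, the difference in Myl7 to Myl4 was −0.37 to −0.25 and that in Myl3 to Myl4 was −0.24 to 0.33.

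Members and heavy chain genes that did not pass changed sign as follows. With array weights the log2 fold change was 0.17 for Myl2, 0.0550 for Myl6 and −0.0248 for Mylk3. Without 1 library it was −0.69 to 0.26 for Myl2, −0.0679 to 0.0767 for Myl6, −0.0159 to 0.16 for Myl12a, −0.0644 to 0.12 for Mylk3 and −0.15 to 0.34 for Myh7. Without the 3 Gm42418-rich libraries it was 0.34 for Myl2, −0.0106 for Myl1 and −0.0667 for Myl12a, and with the Gm42418 covariate 0.0264 for Myl6 and −0.31 for Myh7. Myh7 was at −0.0206 in edgeR and −0.0212 in DESeq2. With high Xist alone Myl6 was at 0.0769 and Mylk3 at −0.11, and with low Xist alone Myl1 was at −0.0055, Mylk at 0.0110, Myh6 at 0.0817 and Myh7 at −0.0460. Myl2, Myl3 and Mylk4 had the fewest reads of the members, with as few as 21, 42 and 69 in a library. Their levels also varied widely between libraries, with coefficients of variation of 151%, 64.3% and 34.1% among control libraries.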
